A study of Mus musculus with 6 samples.

Results

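Interferon-stimulated antiviral effectors and regulators are the genes that a cell switches on when it receives an interferon signal. The set described here holds 44 genes listed by symbol, and all 44 were found among the 55573 genes of the count table, of which 21821 had a count in any library. They comprise IFIT, OAS, Ifi200 and Slfn family members, nucleic acid sensors, STAT and IRF transcription factors, and further effectors. The list was drawn up with the comparison of the dKO and WT libraries already known. Their differences between those groups are therefore given as a description, with no test of the set, and support nothing beyond the values themselves.

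Total RNA was sequenced from cells of the mouse retina that had been sorted by flow cytometry as RGCs (retinal ganglion cells, which carry visual signals to the brain). The mice were C57BL/6 and carried floxed alleles of Myh9 and Myh10, which encode nonmuscle myosin II heavy chains. The dKO libraries (n = 3) came from eyes given AAV2-Cre, an adeno-associated virus carrying Cre recombinase, and the WT libraries (n = 3) from eyes given AAV2-GFP. Vectors were injected into the vitreous 2 weeks before the retinas were taken, and each library pooled 3 retinas of different mice. Both groups thus share the floxed alleles, the injection and an AAV2 vector, and no uninjected group is included. What drives expression from each vector, which marker was sorted on, and how old the mice were is not stated in these sources. Replicates are described as separate pools, but whether 1 mouse gave eyes to both groups is not stated. Any p-value here therefore reflects only how far these particular libraries vary, some of which can be technical.

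Depth outside a single ribosomal RNA row (CT010467.1) ranged between 346037 and 576060 counts for 5 of the libraries, and dKO replicate 3 had 1636581. That row took 64.2% to 91.2% of the dKO libraries and 90.2% to 92.8% of the WT libraries, with the 64.2% in dKO replicate 3. Myh9 and Myh10 were not lower after AAV2-Cre: their log2 fold changes were -0.04 ± 0.10 and -0.15 ± 0.14 (SE; edgeR adjusted p 0.908 and 0.735). The counts cover whole genes, so they do not show by themselves whether the floxed exons were lost, and the groups are called the dKO-labelled and WT-labelled libraries throughout. Summed over 15 RGC markers, the share of counts, that row left out, was 0.0346% to 0.0373% in the dKO-labelled and 0.0246% to 0.0298% in the WT-labelled libraries. Of the RGC transcription factors in that list, Atoh7 had no count in any library, while Pou4f2 had 0, 2 and 5 counts in the dKO-labelled libraries and none in the WT-labelled ones. Isl1, which bipolar cells also express, had 25, 13 and 73 counts in the dKO-labelled libraries and 34, 24 and 24 in the WT-labelled ones and was not called. Nefl, a neurofilament subunit, was the sole RGC marker called, with a log2 fold change of 1.63 ± 0.28 (edgeR adjusted p 3.96e-05). The 10 markers of Müller glia and astrocytes held 3.12% to 3.38% in the dKO-labelled and 3.00% to 3.10% in the WT-labelled libraries. These were higher without overlap (two-sided exact permutation p = 0.1, the smallest this design allows). Gfap was the sole marker of that list called, and it was higher (log2 fold change 0.69 ± 0.12, edgeR adjusted p 4.04e-05).

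Type I interferons bind the receptor subunits IFNAR1 and IFNAR2, which activate the kinases JAK1 and TYK2. These phosphorylate STAT factors, among them STAT2, which acts with IRF9 in the complex ISGF3. ISGF3 enters the nucleus and binds the interferon-stimulated response element (ISRE), a pair of GAAA blocks near the start of the target genes. Interferon gamma acts through the GAS element. In the retina, as in brain, microglia, glia and neurons can all express such genes at a low tonic level, and the products include factors of the pathway itself.

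The ISRE letters are shown first because they are the feature these promoters are known for and the list did not use them. RefSeq windows on GRCm38.p6, from 250 bases before to 50 bases after a gene's start, were at hand for 34 of the 44 members. The 10 others were Oas2, Ifi204, Dhx58, Zbp1, Usp18, Mx1, Mx2, Parp9, Parp14 and Ifi27. The letters GAAA NN GAAA (N is any base, no gaps), searched on both strands (TTTC NN TTTC on the other) with overlapping matches allowed, occurred in 19 of the 34 members (55.9%), against 3.99% of the 27025 genes with such windows. At least 2 matches occurred in 7 members, against 72 of all genes. Of members called lower (defined below), 10 of 15 with a window had a match, and of members tested and not called 7 of 15 had one. The GAS letters TTCNNNGAA, which read the same on both strands and may overlap the ISRE letters, occurred in 7 of the 34 members (20.6%) and in 9.55% of all genes. A match is a description of the letters, not a site that was shown to be bound.

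Of the 4 IFIT genes, 3 had paired matches and Ifit2 had none in its 2 windows. The other members with at least 2 matches were Oas1a, Isg15, Bst2 and Ifitm3. The IFIT pairs are printed here 5′ to 3′ on the plus strand, which is the genes' own, with the ISRE letters in capitals and 10 bases on each side, to compare the letters and their spacing between neighbouring genes. The Ifit1 pair lies at chr19:34640775-34640823, the Ifit3 pair at chr19:34583363-34583426 and the Ifit3b pair at chr19:34607759-34607822.
Ifit1: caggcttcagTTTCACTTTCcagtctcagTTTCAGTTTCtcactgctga
Ifit3: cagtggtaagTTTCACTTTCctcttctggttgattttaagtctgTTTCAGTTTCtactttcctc
Ifit3b: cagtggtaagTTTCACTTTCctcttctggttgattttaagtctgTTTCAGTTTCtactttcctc
These genes all carry the same pair of letters in the same order. The first letters lie 19 bases apart in Ifit1 and 34 bases apart in Ifit3 and Ifit3b, whose 64-base stretches were identical at 64 of 64 positions. The pair begins 104 and 85 bases before the start of Ifit1, 156 and 122 before that of Ifit3, and 188 and 154 before that of Ifit3b.

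Single matches of called members in the other classes, and the matches of Trim30d and Isg15, are shown to compare the letters inside and around the motif. They are given on each gene's own strand, with capitals for the ISRE letters. Plus-strand genes are Slfn5 (chr11:82951937-82951966) and Stat2 (chr10:128270266-128270295). Minus-strand genes are Oas3 (chr5:120777715-120777744), Ifi203 (chr1:173942508-173942537), Ifi207 (chr1:173741831-173741860), Slfn8 (chr11:83020839-83020868), Ddx58 (chr4:40239804-40239833), Trim30a (chr7:104465210-104465239), Trim30d (chr7:104507871-104507900) and Isg15 (chr4:156200865-156200906).
Oas3: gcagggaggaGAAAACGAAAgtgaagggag
Ifi203: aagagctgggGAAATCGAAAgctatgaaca
Ifi207: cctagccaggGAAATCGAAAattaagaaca
Slfn5: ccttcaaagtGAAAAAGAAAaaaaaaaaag
Slfn8: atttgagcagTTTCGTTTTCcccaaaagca
Ddx58: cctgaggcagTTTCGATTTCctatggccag
Stat2: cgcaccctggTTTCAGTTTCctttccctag
Trim30a: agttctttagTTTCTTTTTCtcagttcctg
Trim30d: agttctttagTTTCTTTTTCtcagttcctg
Isg15: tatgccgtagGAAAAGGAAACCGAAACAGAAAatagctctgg
The neighbours Trim30a and Trim30d were identical at 30 of 30 positions, and Ifi203 and Ifi207 at 22 of 30. Isg15 held 3 matches that overlap each other, each beginning 6 bases after the one before. The Slfn5 match runs on into a stretch of A.

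The 250 bases before the start are given for the called IFIT and OAS members with the highest level per kilobase, because they differ in this feature. Ifit3 (chr19:34583279-34583528, plus strand) holds both matches in this stretch, and Oasl2 (chr5:114896684-114896933, plus strand) holds none.
Ifit3: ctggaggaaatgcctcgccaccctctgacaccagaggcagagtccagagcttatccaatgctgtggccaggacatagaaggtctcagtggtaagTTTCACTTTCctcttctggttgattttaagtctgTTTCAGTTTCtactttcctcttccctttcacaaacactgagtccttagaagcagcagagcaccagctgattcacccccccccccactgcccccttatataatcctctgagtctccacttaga
Oasl2: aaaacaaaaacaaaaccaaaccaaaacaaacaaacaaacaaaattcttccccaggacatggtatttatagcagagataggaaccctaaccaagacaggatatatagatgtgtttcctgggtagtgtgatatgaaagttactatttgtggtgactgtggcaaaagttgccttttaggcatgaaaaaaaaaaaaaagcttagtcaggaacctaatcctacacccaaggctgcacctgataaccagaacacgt
Both genes were called lower, so the count table gives a called member with the letters and a called member without them in this window.

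**Figure D1:**
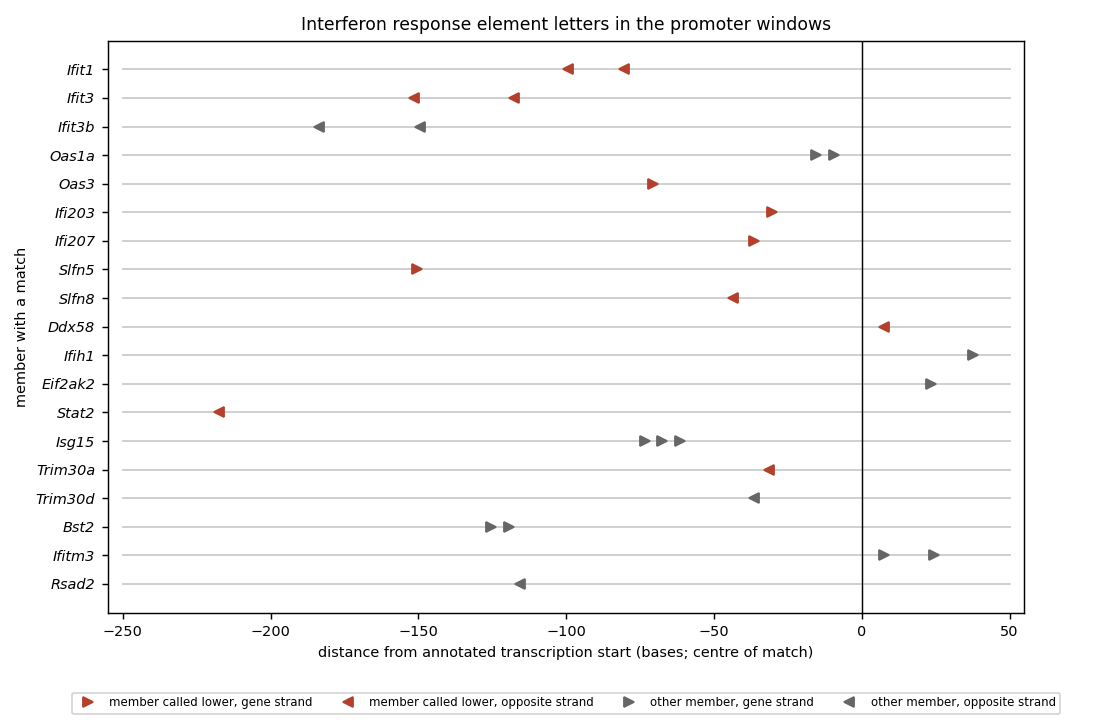
Position of the ISRE letters in RefSeq windows of the members that have a match, as distance in bases from the gene's start (horizontal axis, centre of the match), 1 row per member, with arrows for the strand of the letters and colour for members called lower. The paired matches of Ifit1, Ifit3 and Ifit3b and the triple match of Isg15 lie before the start, and those of Ddx58, Ifih1, Eif2ak2 and Ifitm3 lie after it.

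As a group the members were lower in the dKO-labelled libraries. Of the 44, 39 passed the filter on low counts and were tested, 19 were called lower and none was called higher (edgeR quasi-likelihood test, adjusted p under 0.05 over all 8444 genes tested). Among all tested genes 1.18% were called lower and 0.734% higher. Since the list was made with this contrast known, nothing is read from the difference between these shares. At an unadjusted edgeR p under 0.05, 30 members were lower and 0 higher. The share of all tested genes at that level is not given here, so nothing is read from that count. DESeq2 called 11 lower and none higher, against 0.322% of all genes called lower by it. Without WT replicate 1, 12 were called lower. The 5 members under the filter were fitted in some alternatives: when 3 libraries had to reach 1 CPM, Oas2, Isg15 and Ifi44 were called lower too (22 in all), and DESeq2 called none of the 5. The log2 fold change was negative for 38 of the 39 and positive for Cmpk2, with a median of -0.68 and a range of -1.82 to 0.16, while the median over all tested genes was 0 and 50.2% of them were negative. In 29 of the 39 every dKO-labelled library was below every WT-labelled library, which was the case for 8.31% of all tested genes. No member had every dKO-labelled library above every WT-labelled one, against 8.66% of all tested genes. Of the 39, 11 had fewer than 3 dKO-labelled libraries past the count filter, and 5 of these (Ifit1, Ifi203, Slfn8, Zbp1 and Mx1) had all 3 WT-labelled libraries past it. In cells sorted in bulk, fewer expressing cells and less RNA per cell cannot be told apart.

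With the ribosomal RNA row left out, the 44 members together held 0.278%, 0.282% and 0.296% of counts in dKO-labelled replicates 1, 2 and 3, and 0.441%, 0.448% and 0.454% in WT-labelled replicates 1, 2 and 3. The groups did not overlap, and the ratio of the means was 0.637. Each of the 12 classes into which the members were sorted by function showed the same separation, with ratios of 0.428 for the Ifi200 family, 0.549 for IFIT, 0.615 for OAS, 0.690 for the sensors and 0.741 for Slfn. The members were chosen with this contrast known, so nothing is read from how many classes separated. With the ribosomal RNA row in the denominator, the members held 0.0285%, 0.0248% and 0.106% in the dKO-labelled and 0.0434%, 0.0328% and 0.0326% in the WT-labelled libraries. The direction of the means then turned, and dKO replicate 3, with its low ribosomal RNA share, stood far above the others.

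**Figure D2:**
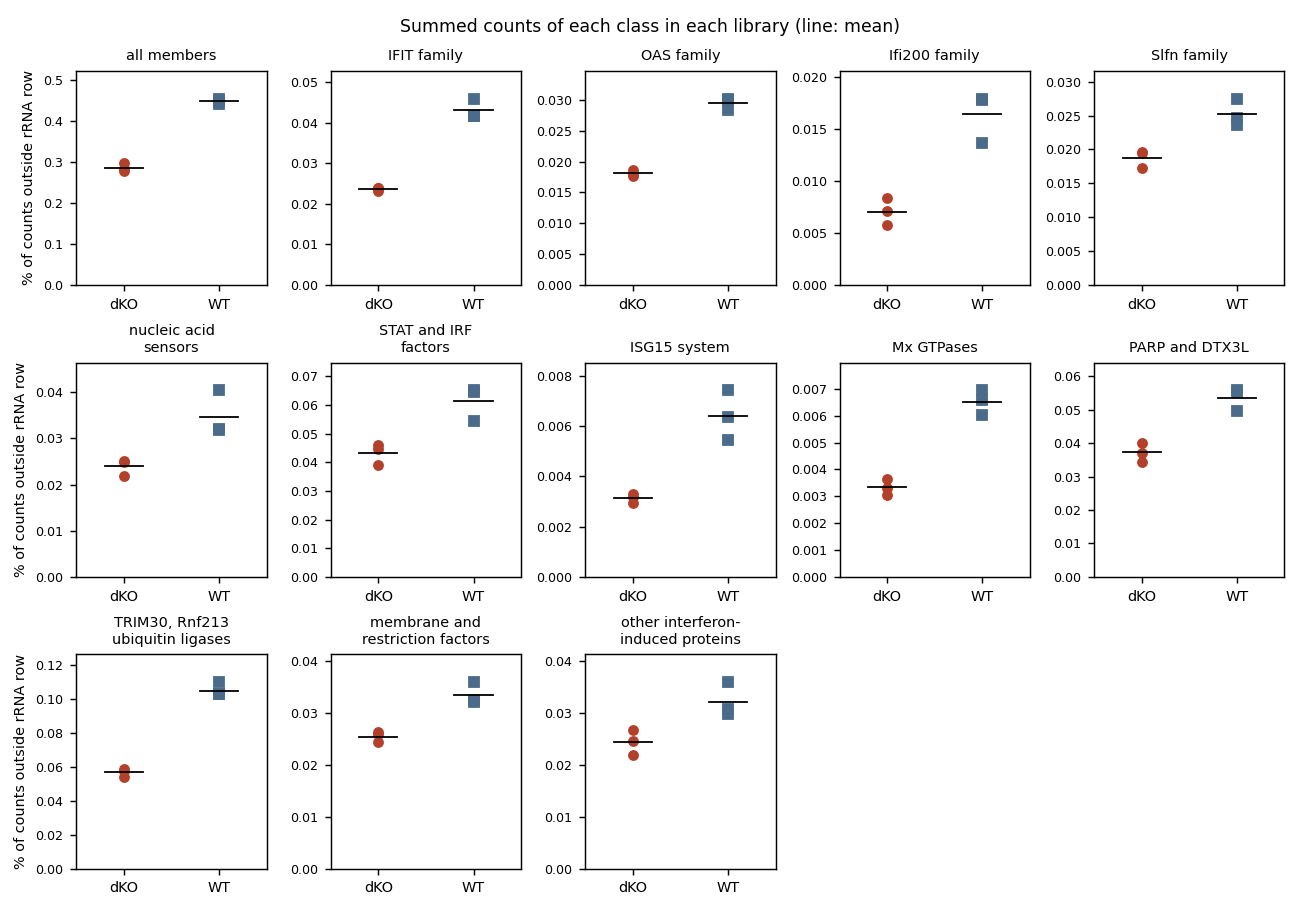
Share of counts without the ribosomal RNA row (percent, vertical axis) held by each class of members in each library, with dKO-labelled libraries left of WT-labelled ones and a line at each mean. In all 12 classes the 3 dKO-labelled points lie below the 3 WT-labelled points.

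**Figure D3:**
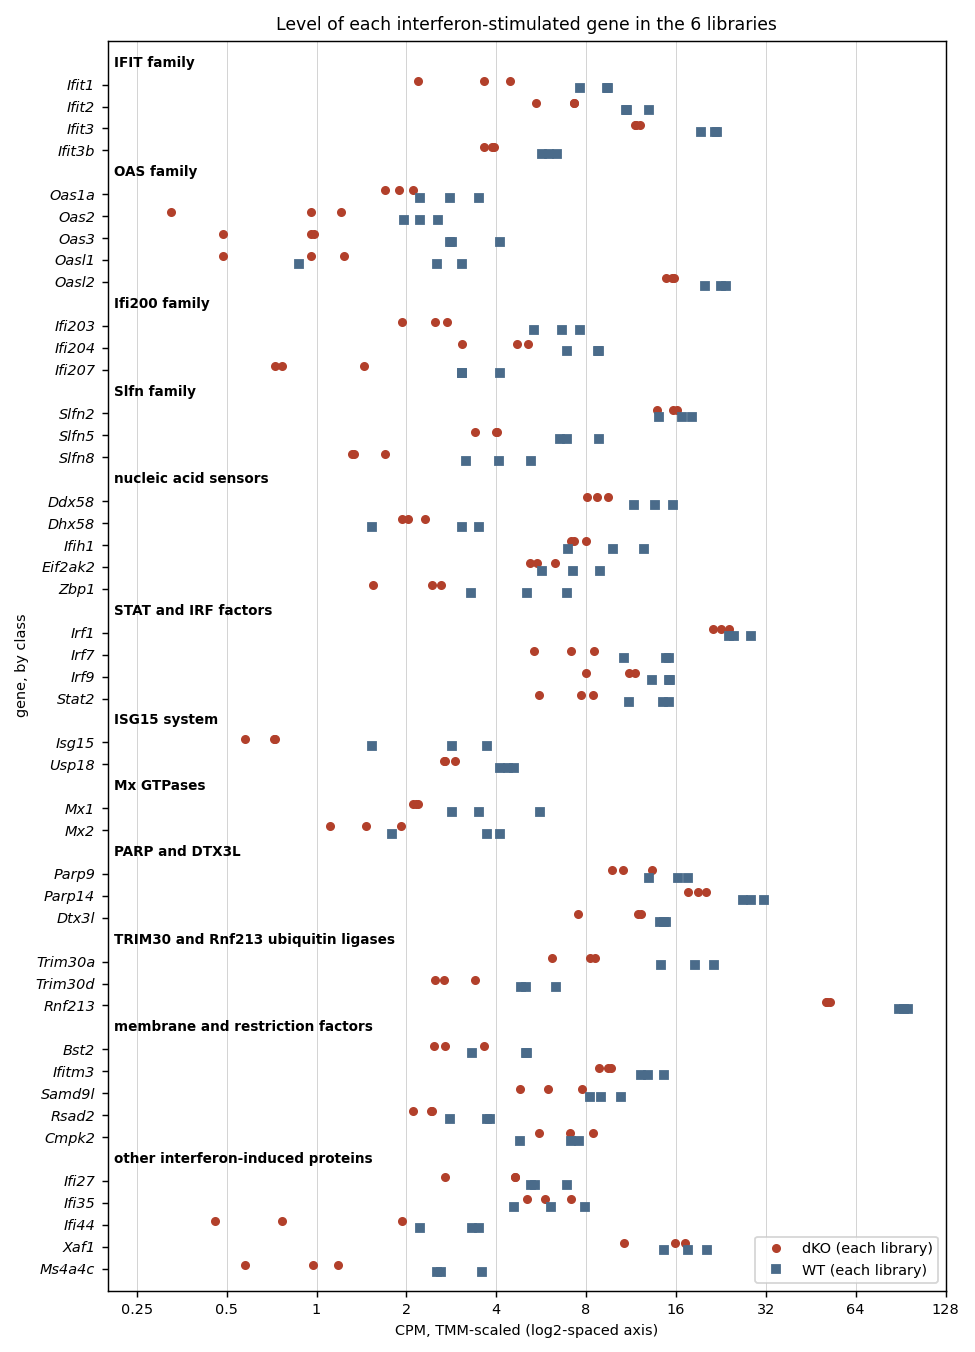
CPM of each member (horizontal axis, log2 spacing) in each of the 6 libraries, with a row per gene, circles for dKO-labelled and squares below them for WT-labelled libraries. Rnf213 stands highest, at 50.9 to 52.7 CPM in the dKO-labelled and 89.5 to 95.9 CPM in the WT-labelled libraries.

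**Figure D4:**
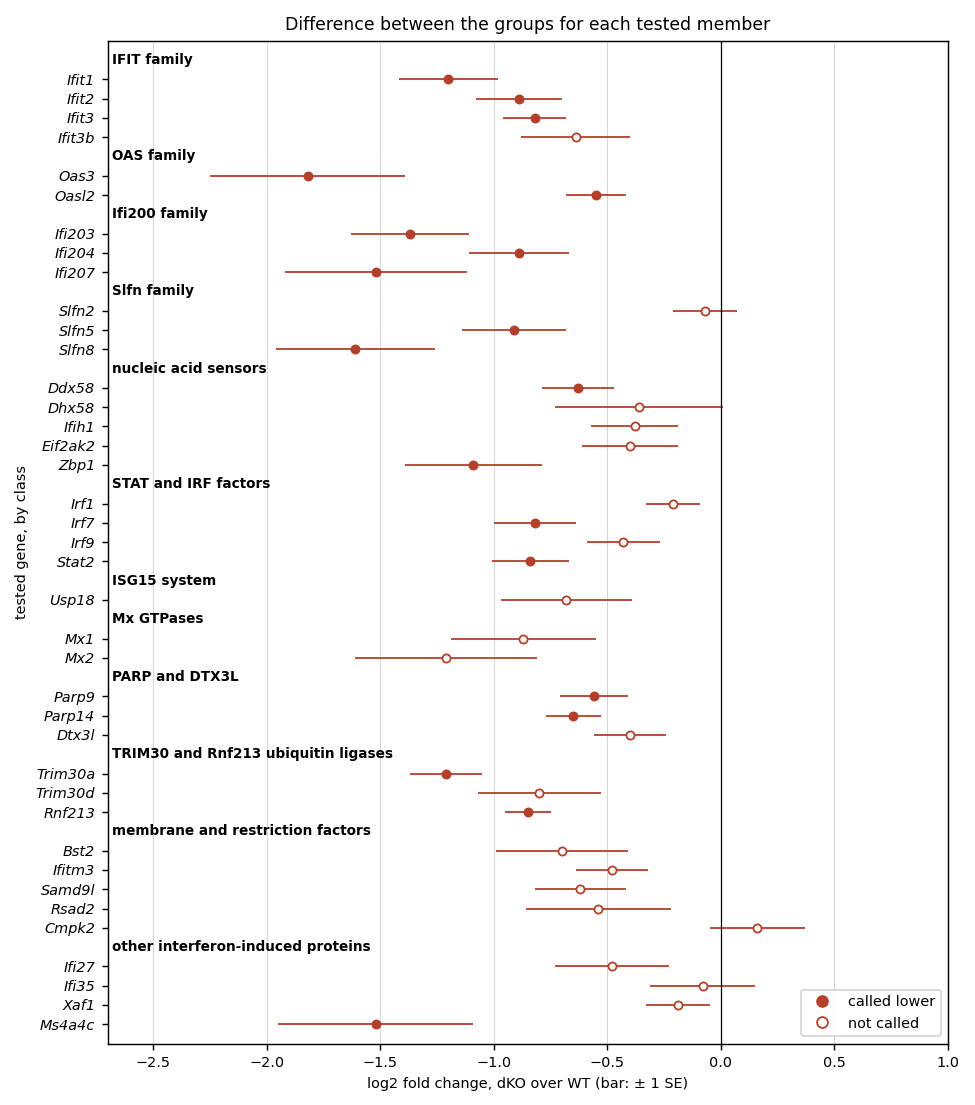
Log2 fold change (dKO over WT, horizontal axis) of the 39 tested members with bars of 1 standard error, grouped by class and filled where called lower. All lie below 0 except Cmpk2 at 0.16, and Oas3 at -1.82 is the lowest.

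The IFIT family, whose products bind viral RNA that lacks the host's cap marks and block its translation, had 3 of its 4 genes called lower, and in all 4 the groups did not overlap. The genes lie within 99.3 kb on chromosome 19. Levels are given below in CPM (counts after scaling of all libraries by TMM to an equal size, the ribosomal RNA row included) for replicates 1, 2 and 3 of each group. Ifit1 (ENSMUSG00000034459) was at 3.65, 2.18 and 4.44 CPM in the dKO-labelled libraries, against 9.40, 9.50 and 7.65 CPM in the WT-labelled ones (log2 fold change -1.20 ± 0.22, SE). Ifit2, which also promotes apoptosis, was at 7.29, 7.28 and 5.42 CPM in the dKO-labelled against 10.9, 13 and 11 CPM in the WT-labelled libraries (-0.89 ± 0.19). Every dKO-labelled library was below every WT-labelled one for both. Ifit3, which stabilises the binding of RNA by the IFIT complex, was at 11.7, 12.1 and 11.8 CPM in the dKO-labelled libraries and 19.4, 21.9 and 21.7 CPM in the WT-labelled ones (-0.82 ± 0.14). Those 3 were called. Its near copy Ifit3b was at 3.65, 3.88 and 3.92 CPM in the dKO-labelled against 5.68, 6.02 and 6.38 CPM in the WT-labelled libraries (-0.64 ± 0.24), without overlap, but was not called. Per kilobase of exon, Ifit3 was the highest, at 6.81 CPM per kb in the dKO-labelled and 12 CPM per kb in the WT-labelled libraries, while the other members lay at 1.29 to 1.91 CPM per kb in the dKO-labelled and 2.96 to 3.33 CPM per kb in the WT-labelled libraries. Of the 50-base words in Ifit3, 51.2% also occur in Ifit3b and 44.5% of those in Ifit3b occur in Ifit3, so the split of reads between these copies is uncertain. The call for Ifit2 ended without dKO replicate 3.

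Enzymes of the OAS family make oligoadenylates that activate RNase L, and the list also holds their OASL relatives Oasl1 and Oasl2. In this family 4 of the 5 genes were lower without overlap, but most had few counts and 2 were tested. Oas3 was at 0.960, 0.485 and 0.979 CPM in the dKO-labelled libraries, against 2.84, 4.12 and 2.81 CPM in the WT-labelled ones (log2 fold change -1.82 ± 0.43), the lowest value of the 39 tested members. It rests on 59 counts over the 6 libraries. Oasl2, an OASL relative with far more counts, was at 15.7, 15.5 and 14.8 CPM in the dKO-labelled against 23.6, 20 and 22.7 CPM in the WT-labelled libraries (-0.55 ± 0.13), and per kilobase it was the highest of the family, at 2.41 CPM per kb in the dKO-labelled and 3.47 CPM per kb in the WT-labelled libraries. Oas1a, with 81 counts in all, was at 2.11, 1.70 and 1.89 CPM in the dKO-labelled against 3.50, 2.22 and 2.81 CPM in the WT-labelled libraries and was not tested. Of its 50-base words 57.6% also occur in Oas1g, so reads of the pair cannot be separated with confidence. Oas2 (41 counts) was at 0.960, 1.21 and 0.326 CPM in the dKO-labelled against 1.97, 2.22 and 2.55 CPM in the WT-labelled libraries. It was called in 1 of the 3 alternatives that fitted it. Oasl1 (50 counts) overlapped, at 0.960, 0.485 and 1.24 CPM in the dKO-labelled against 0.874, 2.53 and 3.06 CPM in the WT-labelled libraries. The Oas genes lie within 177 kb and the Oasl genes within 41.0 kb on chromosome 5. Calls ended for Oas3 without WT replicate 1 or 2, and for Oasl2 with DESeq2 and without WT replicate 1 or dKO replicate 3.

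The Ifi200 family encodes proteins that bind DNA and, in part, sense it, and all 3 of its genes in the set were called lower. They lie within 219 kb on chromosome 1. Ifi203 was at 2.50, 1.94 and 2.74 CPM in the dKO-labelled libraries, against 7.65, 6.65 and 5.36 CPM in the WT-labelled ones (log2 fold change -1.37 ± 0.26). Ifi204, a DNA sensor that works with STING, was at 3.07, 5.10 and 4.70 CPM in the dKO-labelled against 8.74, 8.87 and 6.89 CPM in the WT-labelled libraries (-0.89 ± 0.22). Ifi207 was at 0.768, 0.728 and 1.44 CPM in the dKO-labelled against 3.06, 4.12 and 3.06 CPM in the WT-labelled libraries (-1.52 ± 0.40). No library of one group overlapped the other for any of the 3. Outside the set, the family's Ifi209 (-0.40 ± 0.30), Mndal (-0.51 ± 0.32) and Aim2 (-0.25 ± 0.38) were also tested. Their groups overlapped and none was called, so the calls in the set do not describe the whole family. Per kilobase Ifi204 was the highest, at 1.20 CPM per kb in the dKO-labelled and 2.29 CPM per kb in the WT-labelled libraries. The family's members share sequence with relatives: 20% of the 50-base words of Ifi204, 12.2% of Ifi203 and 7.29% of Ifi207 occur in other genes. The call for Ifi204 ended with DESeq2 and without WT replicate 1, WT replicate 2 or dKO replicate 1, and that for Ifi207 with DESeq2 and without any library but dKO replicate 3.

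The Slfn (schlafen) genes, regulators of lymphocyte quiescence and of RNA and viral replication, differed among themselves: 2 of the 3 were called lower and Slfn2 was close to 0 difference. They lie within 119 kb on chromosome 11. Slfn8 was at 1.34, 1.70 and 1.31 CPM in the dKO-labelled libraries, against 5.24, 3.17 and 4.08 CPM in the WT-labelled ones (log2 fold change -1.61 ± 0.35). Slfn5 was at 4.03, 3.40 and 3.98 CPM in the dKO-labelled against 6.56, 8.87 and 6.89 CPM in the WT-labelled libraries (-0.91 ± 0.23). Both were called and neither overlapped. Slfn2, required for T cell quiescence, was at 16.1, 13.8 and 15.6 CPM in the dKO-labelled against 14.0, 18.1 and 16.8 CPM in the WT-labelled libraries (-0.07 ± 0.14, 95% interval -0.34 to 0.21), so a change the size of those in Slfn5 and Slfn8 lies outside its interval. Per kilobase, Slfn2 was the highest of the 3, at 9.13 CPM per kb in the dKO-labelled and 9.79 CPM per kb in the WT-labelled libraries. Words shared with Slfn9 and a pseudogene, 14.6% in all, make Slfn8 the least certain of the 3. Its call ended without WT replicate 1, and that of Slfn5 with DESeq2 and without WT replicate 2 or dKO replicate 3.

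The nucleic acid sensors recognise viral RNA or DNA, and 2 of the 5 were called, with a median log2 fold change of -0.40. Ddx58 encodes RIG-I, the sensor of uncapped RNA ends, and was at 8.06, 9.46 and 8.68 CPM in the dKO-labelled libraries, against 11.6, 13.6 and 15.6 CPM in the WT-labelled ones (log2 fold change -0.63 ± 0.16). Zbp1, a sensor of Z-form nucleic acid that triggers necroptosis, was at 1.54, 2.43 and 2.61 CPM in the dKO-labelled against 3.28, 5.07 and 6.89 CPM in the WT-labelled libraries (-1.09 ± 0.30). Neither overlapped. Ifih1, which encodes MDA5, a sensor of long double-stranded RNA, was at 7.10, 7.28 and 7.97 CPM in the dKO-labelled libraries, against 9.83, 6.97 and 12.5 CPM in the WT-labelled ones (-0.38 ± 0.19). Eif2ak2, which encodes PKR, a kinase that halts translation on sensing double-stranded RNA, was at 5.18, 6.31 and 5.49 CPM in the dKO-labelled against 7.21, 5.70 and 8.93 CPM in the WT-labelled libraries (-0.40 ± 0.21). Dhx58, which encodes LGP2, a regulator of RIG-I and MDA5, was at 2.30, 1.94 and 2.02 CPM in the dKO-labelled against 3.06, 3.49 and 1.53 CPM in the WT-labelled libraries (-0.36 ± 0.37). In those 3 the groups overlapped through WT replicate 2 for Ifih1 and Eif2ak2 and WT replicate 3 for Dhx58, and none was called. Per kilobase Ddx58 was highest in the dKO-labelled libraries, at 1.24 CPM per kb, and in the WT-labelled ones, at 1.93 CPM per kb. The call for Ddx58 ended with no low-count filter, with DESeq2 and without WT replicate 2 or 3 or dKO replicate 1 or 3, and that for Zbp1 with DESeq2, limma-voom and without WT replicate 2 or 3 or dKO replicate 1.

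Across the 5 compared classes the medians were -1.37 for Ifi200, -1.19 for OAS, -0.91 for Slfn, -0.85 for IFIT and -0.40 for the sensors, with 3 of 3, 2 of 2, 2 of 3, 3 of 4 and 2 of 5 tested members called. The order depended on the processing. With dKO replicate 3 thinned OAS was at -1.29 and Ifi200 at -1.13. Leaving out any library put OAS at -0.97 to -0.57, where 3 or 4 of its genes passed the filter in place of 2, while Ifi200 was at -1.54 to -1.23. These are descriptions, and within Slfn the members lay between -1.61 and -0.07. The ranges of neighbouring classes overlapped, from -1.52 to -0.89 in Ifi200, -1.82 to -0.55 in OAS, -1.20 to -0.64 in IFIT and -1.09 to -0.36 in the sensors, and differences between classes were not tested.

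Among the transcription factors of the pathway, Stat2 and Irf7 were called lower and the rest were not. Stat2, an ISGF3 subunit, was at 8.45, 5.58 and 7.71 CPM in the dKO-labelled libraries, against 11.1, 15.2 and 14.5 CPM in the WT-labelled ones (log2 fold change -0.84 ± 0.17). Irf7, the factor that amplifies interferon alpha genes, was at 7.10, 5.34 and 8.49 CPM in the dKO-labelled against 10.7, 15.2 and 14.8 CPM in the WT-labelled libraries (-0.82 ± 0.18). In both, all dKO-labelled libraries were below all WT-labelled ones. Irf9, the DNA-binding subunit of ISGF3, was at 11.1, 8.01 and 11.7 CPM in the dKO-labelled against 13.3, 15.2 and 15.3 CPM in the WT-labelled libraries (-0.43 ± 0.16), and Irf1, an early response factor, at 22.6, 24.0 and 21.3 CPM in the dKO-labelled against 24.0, 25 and 28.6 CPM in the WT-labelled libraries (-0.21 ± 0.12). Neither was called, and for Irf1 dKO replicate 2 lay just under WT replicate 1, with equal rounded values.

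Of the TRIM30 and Rnf213 ubiquitin ligases, Rnf213 and Trim30a were called lower and Trim30d was not. Rnf213, which coats intracellular pathogens, had the most counts (2348) and the smallest standard error of any member. It was at 51.4, 52.7 and 50.9 CPM in the dKO-labelled libraries, against 95.9, 92.8 and 89.5 CPM in the WT-labelled ones (log2 fold change -0.85 ± 0.10). None of its 50-base words occurs in the transcripts of other genes read in their own direction. Of its exon bases, 8.74% overlap A930037H05Rik on the opposite strand, and without a stated strand setting reads there cannot be told apart. Trim30a, which limits inflammasome and NF-kappaB signals, was at 6.14, 8.25 and 8.55 CPM in the dKO-labelled against 18.6, 14.3 and 21.4 CPM in the WT-labelled libraries (-1.21 ± 0.16). Its neighbour Trim30d, within 98.8 kb on chromosome 7, was at 2.50, 2.67 and 3.40 CPM in the dKO-labelled against 5.03, 6.34 and 4.85 CPM in the WT-labelled libraries (-0.80 ± 0.27) and was not called. No library of one group overlapped the other for these 3.

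Parp14, an ADP-ribosyltransferase, was called, at 20.2, 18.9 and 17.6 CPM in the dKO-labelled libraries and 28.6, 26.9 and 31.6 CPM in the WT-labelled ones (log2 fold change -0.65 ± 0.12). Parp9, the partner of DTX3L, was also called, at 10.6, 13.3 and 9.79 CPM in the dKO-labelled against 17.5, 13 and 16.3 CPM in the WT-labelled libraries (-0.56 ± 0.15). It was the sole called member whose libraries overlapped, through dKO replicate 2 and WT replicate 2. Dtx3l, a ubiquitin ligase, was at 7.49, 11.9 and 12.2 CPM in the dKO-labelled against 14.2, 14.6 and 14.8 CPM in the WT-labelled libraries (-0.40 ± 0.16) and was not called. Parp9 and Dtx3l lie head to head with 458 exon bases in common on opposite strands, and without a stated strand setting reads there cannot be told apart. The Parp9 call ended with no low-count filter, with DESeq2 and without WT replicate 1 or 3 or dKO replicate 1 or 3.

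The remaining effectors included 1 called gene, Ms4a4c, a membrane protein of immune cells. Ms4a4c was at 0.576, 0.971 and 1.18 CPM in the dKO-labelled libraries, against 2.62, 2.53 and 3.57 CPM in the WT-labelled ones (log2 fold change -1.52 ± 0.43). It held 59 counts in all, and its call ended with DESeq2 and on leaving out any library. The ISG15 system tags proteins with a ubiquitin-like modifier: Isg15 (49 counts, not tested, and called in 4 of the 7 alternatives that fitted it) was at 0.576, 0.728 and 0.718 CPM in the dKO-labelled against 3.71, 2.85 and 1.53 CPM in the WT-labelled libraries, and Usp18, which removes the tag, was at 2.69, 2.91 and 2.68 CPM in the dKO-labelled against 4.37, 4.12 and 4.59 CPM in the WT-labelled libraries (-0.68 ± 0.29). Both lacked overlap.

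The 2 genes of the Mx GTPase family were not called. Mx1 was at 2.11, 2.18 and 2.15 CPM in the dKO-labelled libraries, against 2.84, 3.49 and 5.61 CPM in the WT-labelled ones (log2 fold change -0.87 ± 0.32), without overlap. Mx2 was at 1.92, 1.46 and 1.11 CPM in the dKO-labelled against 3.71, 4.12 and 1.79 CPM in the WT-labelled libraries (-1.21 ± 0.40), and WT replicate 3 lay within the dKO-labelled range. The pair lies within 114 kb on chromosome 16.

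Membrane and restriction factors were not called either. Ifitm3, which blocks fusion of viruses with endosomes, was at 8.83, 9.46 and 9.66 CPM in the dKO-labelled libraries, against 12.9, 14.6 and 12.2 CPM in the WT-labelled ones (log2 fold change -0.48 ± 0.16). Samd9l, a restriction factor, was at 4.80, 7.77 and 5.94 CPM in the dKO-labelled against 8.96, 8.24 and 10.5 CPM in the WT-labelled libraries (-0.62 ± 0.20) and was called when dKO replicate 2 was left out. Rsad2 encodes viperin, an enzyme that makes a chain-terminating nucleotide, and was at 2.11, 2.43 and 2.42 CPM in the dKO-labelled against 3.71, 3.80 and 2.81 CPM in the WT-labelled libraries (-0.54 ± 0.32). These groups did not overlap. Bst2, which encodes tetherin and holds budding virions at the cell surface, was at 2.69, 3.64 and 2.48 CPM in the dKO-labelled against 5.03, 5.07 and 3.32 CPM in the WT-labelled libraries (-0.70 ± 0.29) and overlapped. Cmpk2, a mitochondrial nucleotide kinase and the neighbour of Rsad2 within 37.1 kb, was the sole member with a positive value, 0.16 ± 0.21, at 8.45, 5.58 and 7.05 CPM in the dKO-labelled against 4.81, 7.60 and 7.14 CPM in the WT-labelled libraries, and it turned to -0.06 without WT replicate 1.

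The last members were Ifi27, Xaf1, Ifi35 and Ifi44, of which none was called with the filter used here. Ifi27, a small mitochondrial and nuclear-envelope protein, was at 2.69, 4.61 and 4.64 CPM in the dKO-labelled libraries, against 5.24, 5.39 and 6.89 CPM in the WT-labelled ones (log2 fold change -0.48 ± 0.25). Xaf1, a promoter of apoptosis, was at 15.9, 10.7 and 17.2 CPM in the dKO-labelled against 17.5, 14.6 and 20.4 CPM in the WT-labelled libraries (-0.19 ± 0.14). Ifi27 lacked overlap and Xaf1 did not. Ifi44 (55 counts, not tested) was at 0.768, 1.94 and 0.457 CPM in the dKO-labelled against 3.50, 2.22 and 3.32 CPM in the WT-labelled libraries, and 5 of the 8 alternatives that fitted it called it. Ifi35, a partner of Nmi, was at 7.10, 5.82 and 5.09 CPM in the dKO-labelled against 4.59, 7.92 and 6.12 CPM in the WT-labelled libraries (-0.08 ± 0.23), and 16.8% of its exon bases overlap Gm11626 on the opposite strand. Its value turned positive, to 0.10 without WT replicate 2, 0.12 without dKO replicate 3 and 0.01 with dKO replicate 3 thinned.

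Per kilobase, the members were led by Ifitm3 at 13.7 CPM per kb in the dKO-labelled and 19.5 CPM per kb in the WT-labelled libraries. Slfn2, Ifit3 and Irf1 followed, with Irf1 at 5.70 CPM per kb in the dKO-labelled and 6.51 CPM per kb in the WT-labelled libraries. Rnf213, first by CPM, was at 3.06 CPM per kb in the dKO-labelled and 5.49 CPM per kb in the WT-labelled libraries because its exons cover 16.9 kb. Slfn2 thus stood above Ifit3 in the dKO-labelled libraries and below it in the WT-labelled ones.

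Interferon-stimulated genes outside the set were also called lower in part, and none was called higher. Of 71 further genes of the response found in the table, 42 were tested, 5 were called lower and none higher, and 37 had a negative value (median log2 fold change -0.34). Among all tested genes 1.18% were called lower. At an unadjusted edgeR p under 0.05, 19 were lower and 0 higher, again with no share of all genes to set beside them. DESeq2 called 1, against 0.322% of all genes called lower by it. Of the 5 called, 4 are described here. Nlrc5, the activator of MHC class I genes, was at 9.4, 11.2 and 11.1 CPM in the dKO-labelled against 16.4, 21.2 and 13.3 CPM in the WT-labelled libraries. Its log2 fold change was -0.64 ± 0.15 (SE; edgeR adjusted p 0.00732), and that of Ddx60, a helicase that aids RIG-I, was -0.83 ± 0.20 (edgeR adjusted p 0.00762). The log2 fold change of Helz2, a helicase, was -0.70 ± 0.20 (edgeR adjusted p 0.0371) and that of Ifi27l2a was -0.63 ± 0.18 (edgeR adjusted p 0.0401). For these 4, every dKO-labelled library was below every WT-labelled one, but each of the 4 calls ended in some alternative. The call for Nlrc5 ended with DESeq2 and without WT replicate 2, and that for Ddx60 with DESeq2, with dKO replicate 3 thinned and without it. The call for Helz2 ended in 9 of 15 alternatives, among them without WT replicate 1, dKO replicate 2 or dKO replicate 3, and that for Ifi27l2a in 8, among them without any library but dKO replicate 3.

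No gene upstream of the response was called. Of 65 listed ligands, receptors, kinases, inducers and negative regulators, 35 were tested and 0 were called by edgeR or DESeq2. Among all tested genes edgeR called 1.18% lower and 0.734% higher. At such shares a list of 35 genes can hold no call, so nothing is read from the 0. At an unadjusted p under 0.05 edgeR had 3 lower and 2 higher, and the share of all genes at that level is not given here. The 20 type I and III interferon genes listed had no count in any library, and Ifng had 6 counts in all, so ligand levels were not detectable at this depth. The 8 tested receptors and kinases had a median log2 fold change of -0.02, the 18 of the induction pathway -0.15 and the 9 negative regulators 0.10. The 5 genes with an unadjusted p under 0.05 were Irak1 at -0.69 ± 0.25, Irf2 at -0.65 ± 0.28, Traf3 at -0.49 ± 0.23, Socs3 at 0.40 ± 0.15 and Ifngr1 at 0.30 ± 0.13. Their edgeR adjusted p values were 0.170, 0.289, 0.364, 0.214 and 0.276.

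**Figure D5:**
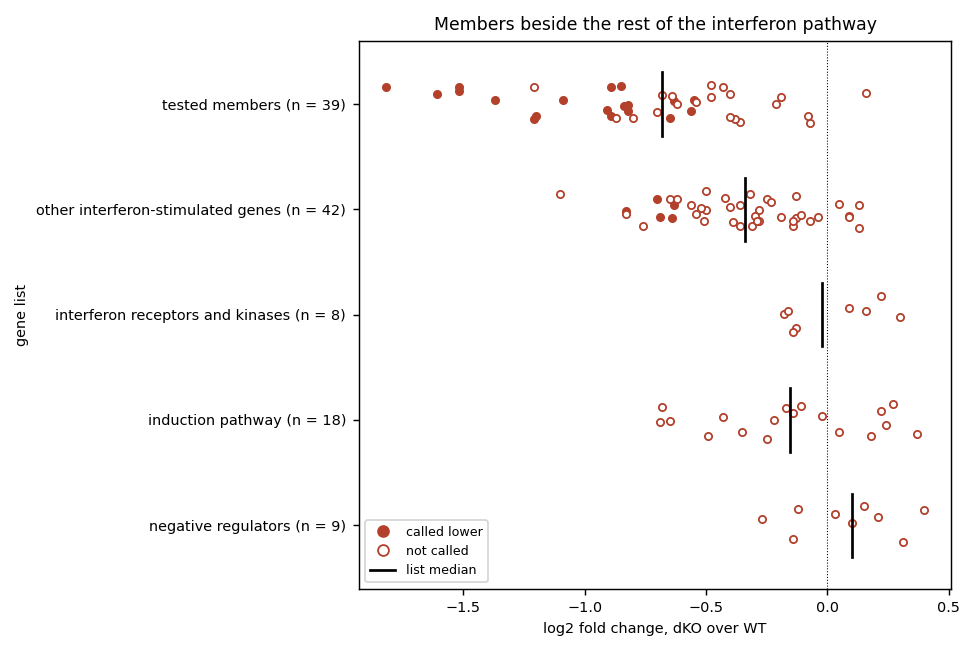
Log2 fold change (dKO over WT, horizontal axis) of tested genes by pathway step, 1 point per gene, filled where called lower, with a bar at each list's median. The members lie lowest (median -0.68), the further interferon-stimulated genes next (median -0.34), and the receptors, inducers and negative regulators near 0 (medians -0.02, -0.15 and 0.10).

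Markers of other cells were summed beside the members, again as shares with that ribosomal RNA row left out. The 16 microglia and macrophage markers held 0.851% to 0.908% in the dKO-labelled and 0.803% to 0.857% in the WT-labelled libraries (two-sided exact permutation p = 0.3, n = 3 each), and the ranges overlapped. Lyz2 was the sole marker of this list called, and it was higher (log2 fold change 0.50 ± 0.10, edgeR adjusted p 0.000392). B and plasma cell markers held 0.254% to 0.281% in the dKO-labelled against 0.298% to 0.378% in the WT-labelled libraries, and monocyte and neutrophil markers 0.0304% to 0.0373% in the dKO-labelled against 0.0381% to 0.0427% in the WT-labelled libraries, with S100a8 and Ly6g at 0 in all libraries. Both lists were lower without overlap (exact permutation p = 0.1 each, the smallest this design allows), and their part in the result was not tested. T and NK cell markers held 0.0373% to 0.0459% in the dKO-labelled against 0.0381% to 0.0459% in the WT-labelled libraries, dendritic cell markers 0.0161% to 0.0166% in the dKO-labelled against 0.0159% to 0.0208% in the WT-labelled libraries and endothelial markers 0.205% to 0.214% in the dKO-labelled against 0.197% to 0.248% in the WT-labelled libraries. Those 3 overlapped. Kdr and Flt1 held most of the endothelial counts, so that sum says little about the other markers. Of the 9 endothelial markers, 3 were tested, and of these 0 were called and 0 were lower without overlap. The 2 that were lower without overlap were untested and had few counts. Among all tested genes 8.31% were lower without overlap. Untested Cdh5, Cldn5 and Tek, with few counts, had mean CPM of 0.227, 0.574 and 0.319 in the dKO-labelled libraries. Their means in the WT-labelled ones were 1.24, 2.1 and 1.23 CPM. Vwf and Egfl7 also had lower means in the dKO-labelled libraries, and Pecam1 and Tie1 higher ones. Rod markers were higher, at 0.332% to 0.412% in the dKO-labelled against 0.175% to 0.201% in the WT-labelled libraries, and bipolar cell markers lower, at 0.154% to 0.159% in the dKO-labelled against 0.212% to 0.222% in the WT-labelled libraries (exact permutation p = 0.1 each), and their part in the result was not tested either.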

How the data were processed

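Counts were deposited by the authors as raw whole-number read counts per Ensembl gene for 6 libraries, not normalized. STAR 2.7.0d, the GRCm38 build and DESeq2 1.22.2 appear in the submitters' processing notes, which do not say how reads were counted, on which strand, or what became of reads with several matches (not given in the sources used here). Low genes were removed with filterByExpr at a minimum count of 10 and a minimum total of 15. TMM factors and the two-sided quasi-likelihood F test of edgeR 4.0.16 under R 4.3.3 followed, with group alone in the model and Benjamini-Hochberg adjustment over 8444 genes. Genes with adjusted p under 0.05 were called. SE is the log2 fold change over the square root of F. The common biological coefficient of variation was 0.0820, and depth outside the ribosomal RNA row (346037 to 1636581 counts) sets the precision. The members and lists were chosen with earlier results of these data known. Every member is named. From the further and upstream interferon lists every called gene but 1 is named or, with none called, those of smallest p. The marker lists are given as sums, and most of their called genes are not named. Exon lengths, overlaps and shared words come from GENCODE M21, promoter sequences from RefSeq (GRCm38.p6). Shared words were sought in transcripts in their own direction only, not in the reverse complement. Marker shares were compared by exact permutation tests. The steps were tested on simulated data. Alternatives used DESeq2 1.42.0, limma 3.58.1, other scalings and filters, a replicate block, a thinned dKO replicate 3 and each library left out. Bst2 was left out of the dendritic cell markers because it is a member. 1 called gene of the further interferon list is not reported here by name, though it was fitted and counted.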

Additional observations from a re-analysis of the deposited data

How the results depend on the processing

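The 19 members called lower became 11 with DESeq2 and 12 (without WT replicate 1) to 20 when a library was left out; 8 calls (Ifit1, Ifit3, Ifi203, Irf7, Stat2, Parp14, Trim30a and Rnf213) were kept in each of the 15 alternatives, and no called member changed sign. The 5 further interferon-stimulated genes called lower became 3 with library sizes outside the ribosomal RNA row, with no low-count filter and with dKO replicate 3 thinned, 1 with DESeq2, and 3 to 5 when a library was left out. The median log2 fold change over members was -0.76 when 3 libraries had to reach 1 CPM and -0.75 with DESeq2. Leaving out a library gave -0.91 to -0.74 for IFIT, -0.97 to -0.57 for OAS (-1.27 to -1.12 over the 2 genes tested with all libraries), -1.01 to -0.79 for Slfn and -0.54 to -0.40 for the sensors. OAS was at -0.95 with no filter and -0.99 with the CPM filter, where 5 of its genes were fitted in place of 2. With dKO replicate 3 thinned Ifi200 was at -1.13 and OAS at -1.29. The sensors were at -0.52 without the ribosomal RNA row, where 4 were fitted in place of 5 because Dhx58 was not. Slfn was at -0.88 with library sizes outside that row, -0.87 with no filter, -0.96 thinned and -0.94 with DESeq2; the cause was not tested.

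With the library total as denominator, log2 ratios of shares (dKO over WT) were 0.55 for the members, 1.26 for microglia, 1.16 for T and NK cells, 0.77 for B and plasma cells, 0.97 for monocytes and neutrophils, 1.00 for dendritic cells, 1.07 for endothelium, 1.29 for Müller glia, 2.23 for rods, 0.73 for bipolar cells and 1.60 for RGCs. The ribosomal RNA share of dKO replicate 3 was 64.2%, the lowest of the 6 libraries.

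The groups share replicate numbers but no stated pairing, and deviations of same-numbered libraries correlated at 0.022, 0.012 and 0.027. With the replicate number as a block, 19 members were called lower, and 100 genes lower and 58 higher in all, against 100 and 62 without it. Members with under about 60 counts (Oas3, Ms4a4c) rest on few reads. The 5 members under the filter (41 to 81 counts) had negative values wherever they were fitted; Oas2, Isg15 and Ifi44 were called with the CPM filter (22 members in all), Isg15 and Ifi44 with no filter, and none of the 5 with DESeq2.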
